A study of Mus musculus with 6 samples.

Results

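The genes described here are 42 markers of cells other than muscle stem cells that live in skeletal muscle. They were taken by exact symbol from a table of 43283 genes, and each was found in it. They comprise 12 endothelial markers, 7 markers of fibro-adipogenic progenitors, 12 leukocyte markers, 8 markers of pericytes and smooth muscle and 3 glial markers. RNA was sequenced from muscle stem cells of female C57BL/6 mice of 8 to 12 weeks by the sample labels (the series' design text gives a wider age range), sorted from hindlimb muscle on α7-integrin and CD34 and against CD45, Sca1, CD31 and CD11b. After sorting, the cells of both groups were cultured in medium with 20% fetal bovine serum for 24 h, with DMSO in the Vehicle group or with prostaglandin E2 (PGE2), a lipid mediator of inflammation, in the PGE2 group. No genetic alteration is named in the labels, and the PGE2 dose is not given in the sources used here. Each group had 3 libraries, which the series calls biological replicates. Nothing says whether they came from separate animals or sorts, so a p-value reflects how much these libraries varied, part of which may be technical.

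Skeletal muscle holds capillary endothelium, mesenchymal fibro-adipogenic progenitors that give rise to matrix and fat, resident macrophages, pericytes and smooth muscle cells around vessels, and Schwann cells along nerves. Each of these cell types is recognised by surface receptors, secreted proteins or structural proteins that muscle stem cells mostly lack, and a sort of stem cells is gated against several of them. A few such genes are not exclusive: the smooth muscle actin Acta2 and its partner Tagln are also known in cultured myoblasts and fibroblasts, and the neurotrophin receptor Ngfr is known in myogenic cells as well as in glia. In bulk RNA, fewer cells of a type and less RNA per cell cannot be told apart.

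Values are TPM, which give the abundance of a transcript relative to all others of its library and are corrected for transcript length, so that levels can be compared between genes. The number of reads behind a value cannot be recovered from TPM. The deposited values summed to between 992357 and 995645 TPM per library, and mitochondrial genes held between 20.9% and 33.6% of them. Most genes of the sorted cell type were high in every library: the summed TPM of 10 muscle stem cell and myoblast genes, among them Pax7, Myf5 and Myod1, lay between 873 and 1181 TPM. Sdc4 held 26.1% of that total, and Itgb1 read between 203.5 and 245.2 TPM. Cdh15, Chrdl2 and Calcr were low, at 0 to 5.15, 0 to 17.75 and 0.17 to 8.45 TPM. Of the genes behind the sort gate, Cd34 read between 12.4 and 26.2 TPM and Itga7, which encodes α7-integrin, between 2.69 and 13.2 TPM. The genes gated against were lower on the whole. Pecam1 (CD31) read between 0.27 and 1.55 TPM, Itgam (CD11b) between 0 and 2.44 TPM and Ptprc (CD45) between 0.45 and 4.81 TPM. Ly6a (Sca1) was at 2.22, 3.38 and 7.92 TPM in Vehicle 1, Vehicle 2 and Vehicle 3. With PGE2 it was listed at 0 in PGE2 1 and PGE2 3 and reached 13.6 TPM in PGE2 2. Itga7 was below Ptprc in PGE2 2 (2.69 against 3.47 TPM) and in PGE2 3 (4.18 against 4.81 TPM), and below Ly6a in PGE2 2.

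Markers of the other cell types were low or listed at 0. The median of the 42 mean values was 0.42 TPM, against 1.17 TPM over all 21478 protein-coding genes of the table, and 34 markers lay under that median. Of the 42 markers, 8 (19.0%) were listed at 0 in all 6 libraries, against 16.4% of protein-coding genes. These were the tight junction gene Cldn5 of endothelium, the progenitor markers Pi16 and Clec3b, the 3 chains of complement C1q made by macrophages (C1qa, C1qb and C1qc), the leukocyte actin-binding protein Coro1a, and Pdgfrb, the PDGF receptor of pericytes. Another 9 markers stayed under 1 TPM in every library, and 17 reached 1 TPM in only 1 or 2 libraries. The remaining 8 were at or above 1 TPM in 3 or more libraries. Acta2 was the only marker at 1 TPM or more in all 6, and Eng, Thy1, Tagln and Ngfr were so in 5.

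**Figure D1:**
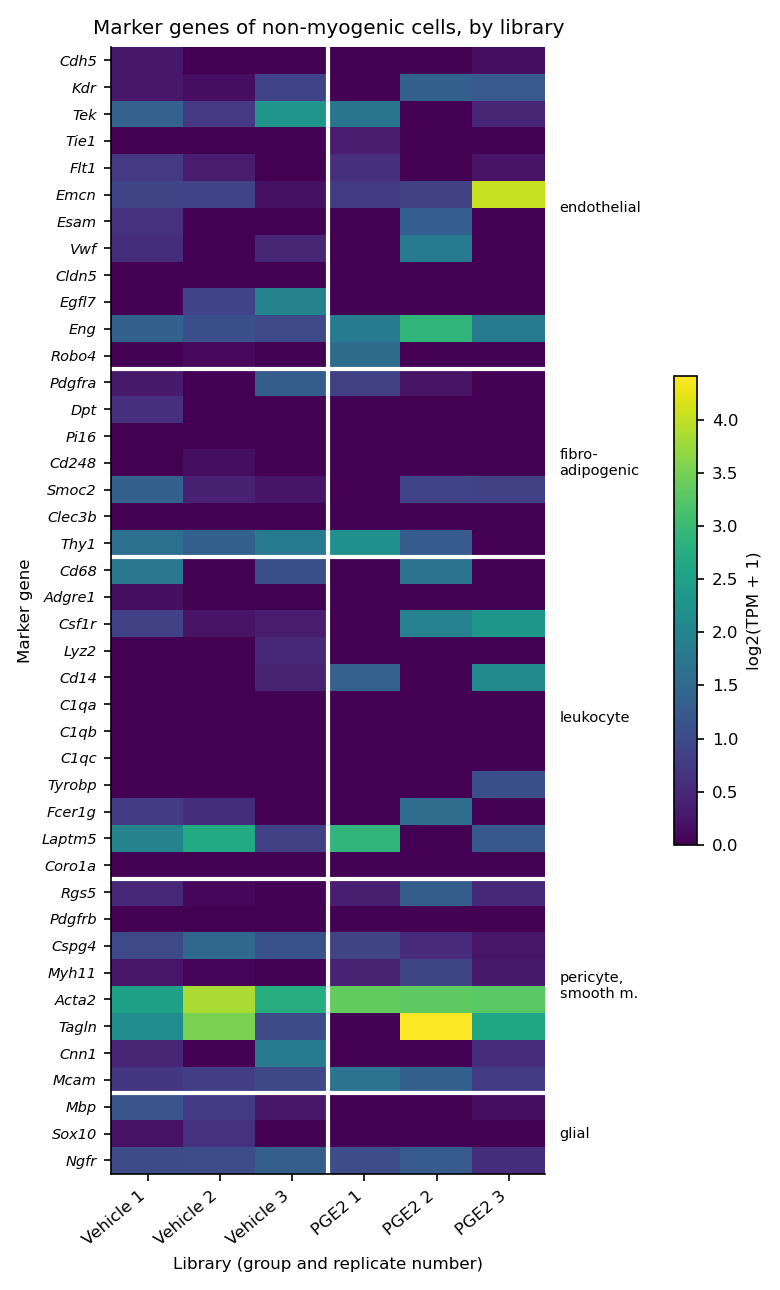
Each row is a marker gene and each column a library; colour gives log2(TPM + 1), and white lines part the 5 marker classes and the 2 groups. Most cells of the map are at or near 0, Acta2 stands out in all 6 columns, and single high values stand out for Tagln in PGE2 2 and Emcn in PGE2 3.

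The markers present differed from library to library. In the order of the replicate numbers, 27, 22 and 21 markers were above 0 across the Vehicle libraries, against 16, 18 and 20 across the PGE2 libraries, so each PGE2 library showed fewer of them than each Vehicle library. Over all protein-coding genes, 68.4%, 64.3% and 59.99% were listed above 0 in Vehicle and 57.5%, 60.3% and 63.3% in PGE2, and there the groups overlapped. The part of this in the markers' count was not tested. At or above 1 TPM the markers' count showed no such split, with 10, 7 and 10 in Vehicle and 9, 13 and 9 in PGE2.

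**Figure D2:**
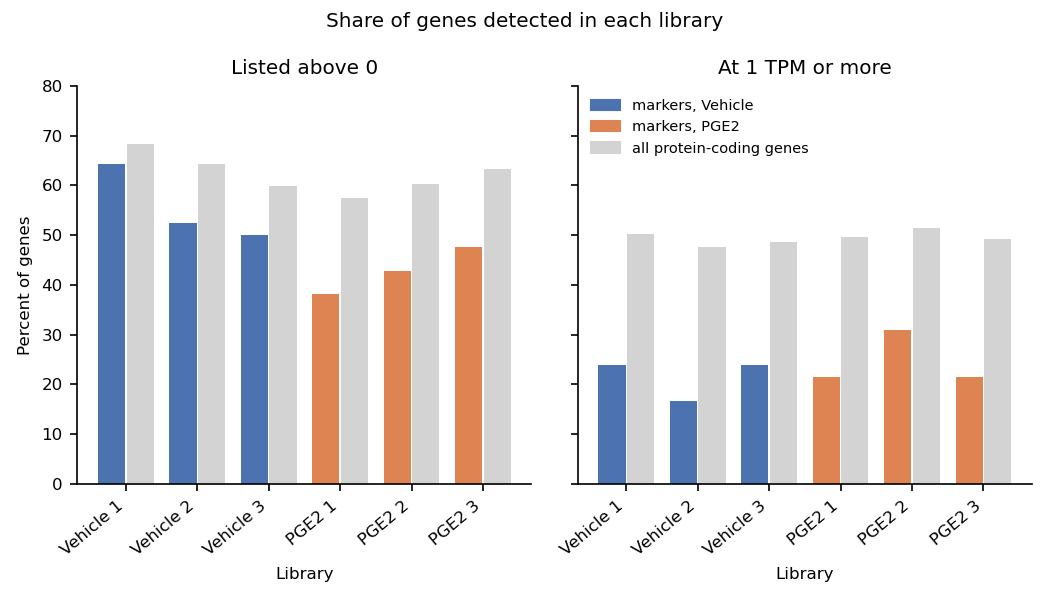
Bars give the percent of genes listed above 0 (left) and at 1 TPM or more (right) in each library, for the 42 markers in colour and for all protein-coding genes in grey. The markers' share at 1 TPM or more lies between 16.7% and 31.0%, while that of protein-coding genes lies between 47.5% and 51.4%.

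Pericyte and smooth muscle markers had the highest summed level of the 5 classes in each library but PGE2 3. The 2 genes of this class with the highest means, Acta2 and Tagln, belong to the contractile cytoskeleton. Acta2, which encodes smooth muscle α-actin (ENSMUSG00000035783, mm10 chromosome 19, 34241090 to 34255590, minus strand), was at 4.77, 13.4 and 5.73 TPM across the Vehicle libraries, given in the order of their replicate numbers here and below, against 9.24, 8.98 and 8.68 TPM across the PGE2 libraries. The PGE2 libraries lay within the range of the Vehicle libraries. Tagln, which encodes the actin-binding protein transgelin, was at 3.40, 10.5 and 1.02 TPM across the Vehicle libraries, against 0, 20.3 and 5.08 TPM across the PGE2 libraries. Its lowest and highest values both fell in the PGE2 group. Vehicle 2 was the highest Vehicle library for both genes, but PGE2 2, the highest for Tagln, was not set apart for Acta2. In the GENCODE annotation 62.4% of the exonic bases of Tagln are shared with the antisense gene Gm48529, for which the deposited data hold no values. Whether the counting used strand is not given in the sources used here, so reads of the 2 genes may not be told apart. Actins are also near-identical in coding sequence, so reads of Acta2 may be divided among them. The skeletal muscle actin Acta1 read between 0.81 and 6.82 TPM, the cytoplasmic actin Actb between 1207 and 2208 TPM, and the enteric smooth muscle actin Actg2 at most 1.23 TPM.

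The other 6 members of this class did not exceed 2.47 TPM. Cnn1, the smooth muscle calponin, was at 0.37, 0 and 2.47 TPM across the Vehicle libraries, against 0, 0 and 0.48 TPM across the PGE2 libraries. Myh11, the smooth muscle myosin heavy chain, stayed at or below 0.90 TPM. Of the pericyte genes, Pdgfrb was listed at 0 throughout and Rgs5, a regulator of G protein signalling, reached 1.47 TPM in PGE2 2 only. Mcam, the adhesion molecule CD146, was at 0.64, 0.76 and 0.95 TPM across the Vehicle libraries, against 2.21, 1.56 and 0.72 TPM across the PGE2 libraries. Its 2 highest values were thus in PGE2, but the third PGE2 library fell among the Vehicle libraries. Cspg4, the proteoglycan NG2, was at 0.97, 1.81 and 1.16 TPM across the Vehicle libraries, against 0.88, 0.44 and 0.21 TPM across the PGE2 libraries, without overlap between the groups. It was named after its values were seen, as was Myh11, which was at 0.20, 0.04 and 0 TPM across the Vehicle libraries, against 0.36, 0.90 and 0.25 TPM across the PGE2 libraries, also without overlap and in the opposite direction.

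Endothelial markers were mixed, and the vascular cadherin that defines the lineage was almost absent. Cdh5, which encodes VE-cadherin, was listed at 0 in 4 libraries and read at most 0.22 TPM, and the angiopoietin co-receptor Tie1 was above 0 in 1 library, at 0.28 TPM. Eng, which encodes endoglin, a co-receptor for ligands of the TGF beta family (ENSMUSG00000026814, chromosome 2, 32646595 to 32682669, plus strand), was at 1.57, 1.10 and 0.96 TPM across the Vehicle libraries, against 2.55, 6.44 and 2.54 TPM across the PGE2 libraries. Each PGE2 library was above each Vehicle library, with PGE2 2 the highest. Its log2 change was 1.05 (95% confidence interval -0.20 to 2.30) and did not pass the test described below, with a limma p of 0.0920 before and 1.00 after Benjamini-Hochberg adjustment. Tek, the angiopoietin receptor, was at 1.63, 0.66 and 3.91 TPM across the Vehicle libraries, against 2.30, 0 and 0.37 TPM across the PGE2 libraries. Here the groups overlapped, and the library highest for Eng was listed at 0. Kdr, the main VEGF receptor of endothelium, was at 0.22, 0.12 and 0.85 TPM across the Vehicle libraries, against 0, 1.57 and 1.34 TPM across the PGE2 libraries, with PGE2 1 below all Vehicle libraries.

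Further endothelial genes exceeded 2 TPM in single libraries. Emcn, the endothelial sialomucin endomucin, was at 0.87, 0.85 and 0.15 TPM across the Vehicle libraries, against 0.69, 0.81 and 15.3 TPM across the PGE2 libraries, so that 1 library stood far above the other 5. Vwf, the von Willebrand factor of platelet adhesion, was at 0.49, 0 and 0.39 TPM across the Vehicle libraries, against 0, 2.51 and 0 TPM across the PGE2 libraries. Egfl7, a secreted endothelial factor, was at 0, 0.84 and 2.95 TPM across the Vehicle libraries, against no value above 0 with PGE2. These high values did not fall in the same library: Emcn peaked in PGE2 3, Vwf in PGE2 2 and Egfl7 in Vehicle 3. The other members did not exceed 1.96 TPM, the value of the guidance receptor Robo4 in PGE2 1, and Cldn5 was listed at 0. Over the whole class, Eng, Kdr, Vwf and Esam were each highest in PGE2 2, and Tek and Egfl7 in Vehicle 3. Cdh5 and Flt1 were highest in Vehicle 1, Tie1 and Robo4 in PGE2 1, and Emcn in PGE2 3.

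Leukocyte markers were low and present in different combinations from library to library, and 4 of the 12 were listed at 0 in every library. These were the C1q chains and Coro1a. The lysozyme gene Lyz2 was above 0 in Vehicle 3 only, at 0.43 TPM, and Adgre1, which encodes the macrophage antigen F4/80, in Vehicle 1 only, at 0.14 TPM. Csf1r, the receptor for the macrophage growth factor CSF1, was at 0.81, 0.18 and 0.27 TPM across the Vehicle libraries, against 0, 2.85 and 4.07 TPM across the PGE2 libraries. Cd14, the co-receptor for bacterial lipopolysaccharide, was at 0, 0 and 0.34 TPM across the Vehicle libraries, against 1.63, 0 and 3.30 TPM across the PGE2 libraries. For each of the 2 genes the 2 highest values were in PGE2 libraries and the lowest PGE2 value was 0. Of the exonic bases of Csf1r, 15.1% overlap Hmgxb3 on the opposite strand, which read between 3.26 and 7.69 TPM. Cd68, a lysosomal glycoprotein of macrophages, was at 2.39, 0 and 1.10 TPM across the Vehicle libraries, against 0, 2.20 and 0 TPM across the PGE2 libraries. Laptm5, a lysosomal membrane protein of blood cells, was the highest leukocyte marker on average, at 2.93, 5.50 and 0.83 TPM across the Vehicle libraries, against 6.45, 0 and 1.32 TPM across the PGE2 libraries. Laptm5 was highest in PGE2 1, where Cd68 and Csf1r were listed at 0, and was listed at 0 in PGE2 2, where these 2 were present. The signalling adaptors Tyrobp and Fcer1g, which act together beneath immune receptors, did not exceed 1.12 and 1.97 TPM and were never above 0 in the same library. At or above 1 TPM were 2, 1 and 1 of the 12 across the Vehicle libraries and 2, 3 and 4 across the PGE2 libraries. Csf1r, Cd14 and Tyrobp were each highest in PGE2 3, as were the leukocyte genes Ptprc and Itgam of the sort gate. Cd68, Fcer1g, Lyz2 and Adgre1 were listed at 0 in that library.

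Of the fibro-adipogenic markers, the defining genes were low, though Pdgfra passed 1 TPM in 1 library. Pdgfra, the receptor by which these progenitors are sorted, was at 0.25, 0 and 1.45 TPM across the Vehicle libraries, against 0.82, 0.18 and 0 TPM across the PGE2 libraries. The matrix gene Dpt and the surface antigen Cd248 were above 0 in 1 Vehicle library each, at 0.52 and 0.12 TPM. Smoc2, a matricellular protein, reached 1.55 TPM in Vehicle 1. Thy1, the glycoprotein CD90 of fibroblasts and other cells, was the highest of the class at 2.06, 1.59 and 2.48 TPM across the Vehicle libraries, against 3.66, 1.42 and 0 TPM across the PGE2 libraries. The PGE2 libraries spread beyond the Vehicle libraries on both sides.

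The glial class held only 3 genes, all low. Ngfr was at 1.02, 1.05 and 1.53 TPM across the Vehicle libraries, against 1.05, 1.40 and 0.49 TPM across the PGE2 libraries, a narrow range that overlapped between the groups. Mbp, which encodes myelin basic protein, was at 1.25, 0.73 and 0.22 TPM across the Vehicle libraries, against 0, 0 and 0.12 TPM across the PGE2 libraries, without overlap. It was named after its values were seen. Sox10, the transcription factor of the glial lineage, was above 0 only in Vehicle 1 and Vehicle 2, at 0.16 and 0.56 TPM.

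Summed over a class, markers stayed far below the muscle stem cell genes. All 42 together summed to between 29.4 and 57.4 TPM in a library, which was between 2.49% and 6.25% of the sum of the 10 stem cell and myoblast genes in the same library. That percent depends on which genes are in the 2 lists and is not a share of cells. Sdc4 and Itgb1 were large parts of the stem cell sum. The further smooth muscle genes described below, which include Cald1 and Tpm1, summed to between 1006 and 1343 TPM in a library. Pericyte and smooth muscle markers summed to 10.8, 26.6 and 11.3 TPM across the Vehicle libraries and to 12.98, 33.6 and 15.8 TPM across the PGE2 libraries, and Acta2 held 45.7% of the class total. Endothelial markers summed to 6.21, 3.93 and 9.21 TPM across the Vehicle libraries and to 8.31, 12.8 and 19.8 TPM across the PGE2 libraries, overlapping in PGE2 1 and Vehicle 3. The ratio of the group means was 2.12 and was 1.39 without Emcn, and for 10 further endothelial genes, described below, it was 0.92. Leukocyte markers summed to 6.99, 6.17 and 2.97 TPM across the Vehicle libraries and to 8.08, 7.02 and 9.81 TPM across the PGE2 libraries. The groups did not overlap for this class, but the lowest PGE2 library stood only just above the highest Vehicle library. Without Laptm5 the leukocyte sums were 4.06, 0.67 and 2.14 TPM across the Vehicle libraries and 1.63, 7.02 and 8.49 TPM across the PGE2 libraries, which overlap. Fibro-adipogenic markers summed to 4.38, 2.03 and 4.12 TPM across the Vehicle libraries and to 4.48, 2.46 and 0.80 TPM across the PGE2 libraries. Glial markers summed to 2.43, 2.34 and 1.75 TPM across the Vehicle libraries and to 1.05, 1.40 and 0.61 TPM across the PGE2 libraries, lower in each PGE2 library. The 8 further glial genes described below summed to between 15.7 and 72.5 TPM in Vehicle and between 22.96 and 177.2 TPM in PGE2, overlapping and with a ratio of group means of 2.62, and Pmp22 held 92.7% of their total. No test was made of these sums, since the genes in them were chosen with earlier results of these data known.

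**Figure D3:**
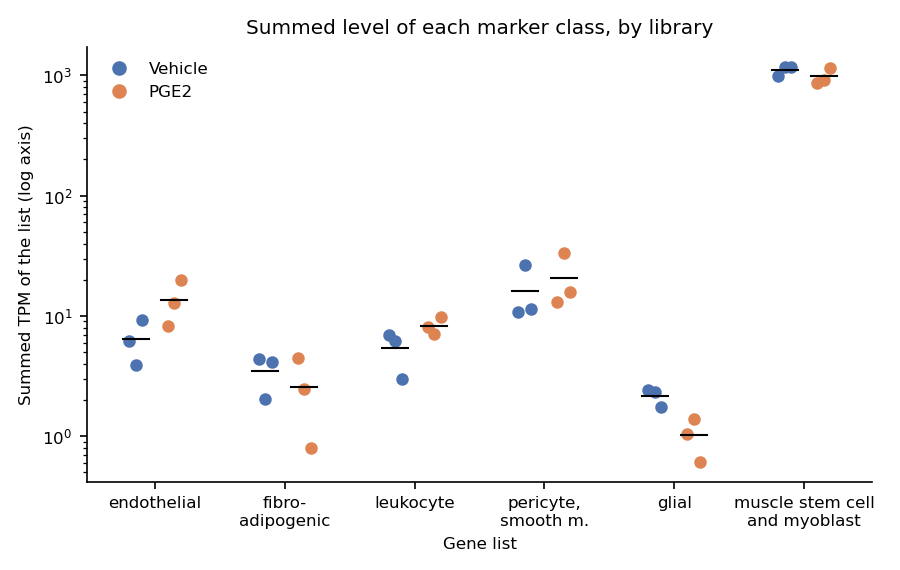
Points give the summed TPM of each marker class in each library on a log axis, with black lines at group means; the last column holds 10 muscle stem cell and myoblast genes. Every class lies between 0.61 and 33.6 TPM, below the 873 to 1181 TPM of the stem cell genes, and the groups are separate for leukocyte and glial markers only.

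The question of which markers differed with PGE2 was put to a linear model over all genes. Genes at 1 TPM or more in at least 3 libraries entered it, which took 12781 genes, 8 of them markers: Tek, Eng, Thy1, Cd68, Laptm5, Acta2, Tagln and Ngfr. The comparison was made with limma on log2(TPM + 1), with Benjamini-Hochberg adjustment over all genes tested and a threshold of 0.05. None of the 8 markers passed (0 of 8, where 0% of the 12781 genes passed), and 0 of 8 had an unadjusted p under 0.05, against 3.63% of all tested genes. The fitted value was higher with PGE2 for Eng, Acta2 and Tagln and lower for the other 5, so 3 of 8 were higher, against 43.9% of all tested genes. The median log2 change of the 8 was -0.28, and that of all tested genes was -0.07. Eng was the only one of the 8 whose groups did not overlap, which held in the direction of higher PGE2 values for 3.18% of all tested genes.

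The intervals were wide. On the log2 scale, 95% confidence intervals extended by a median of 1.48 to either side for the 8 markers and by 1.21 for all tested genes. For Acta2 the log2 change was 0.27 (95% confidence interval -0.85 to 1.39), for Tagln 0.11 (-2.23 to 2.45) and for Ngfr -0.17 (-1.35 to 1.00). For Thy1 it was -0.43 (-1.89 to 1.03), for Tek -0.75 (-2.24 to 0.74), for Cd68 -0.38 (-1.93 to 1.16) and for Laptm5 -0.48 (-2.28 to 1.32). Each interval takes in changes of more than 2-fold in TPM + 1 in at least 1 direction, so a difference of that size in these genes is not excluded. The log2 change of Tagln turned to -0.92 without PGE2 2 and to -0.49 without Vehicle 3, and that of Laptm5 turned to 0.21 without PGE2 2. Thy1 turned to 0.15 without PGE2 3, the library in which it was listed at 0.

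**Figure D4:**
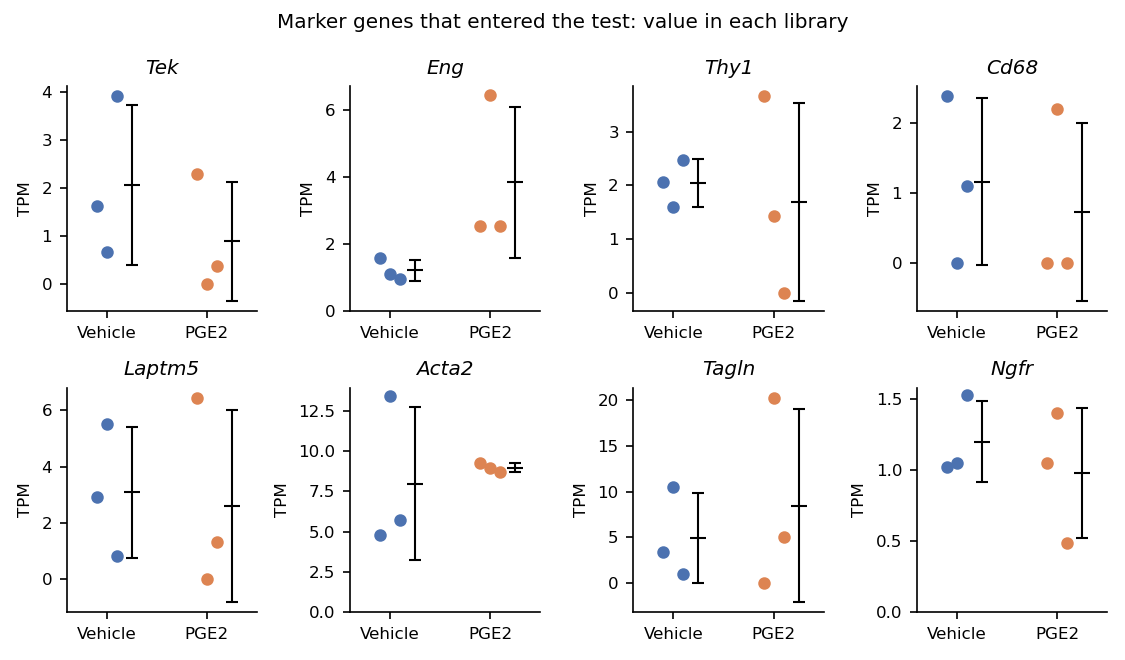
Points give the TPM of the 8 tested markers in each library, with the mean and SD of 3 libraries beside them. The groups are separate for Eng alone, with 0.96 to 1.57 TPM in Vehicle and 2.54 to 6.44 TPM in PGE2.

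**Figure D5:**
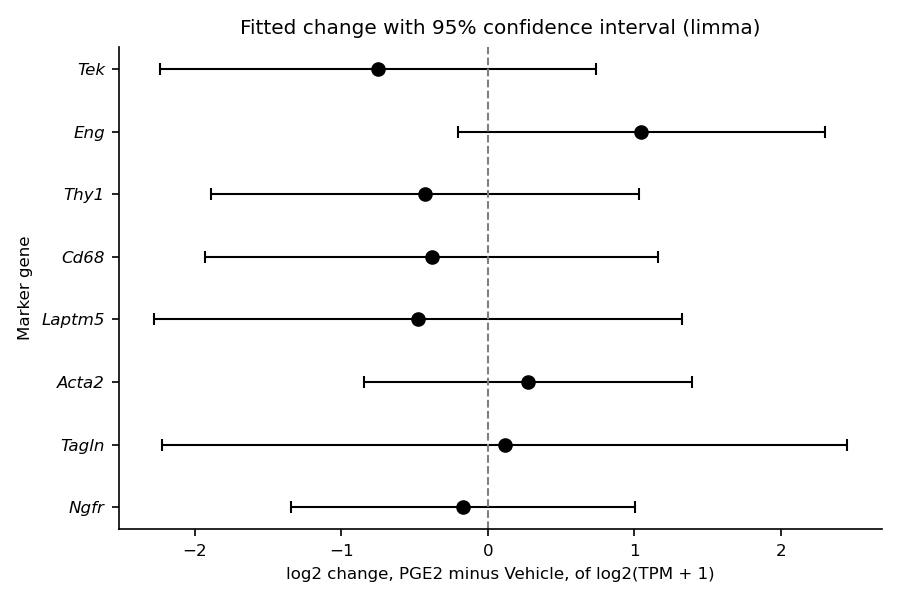
Points give the fitted log2 change, PGE2 minus Vehicle, of each tested marker, and bars its 95% confidence interval. All 8 intervals cross 0, that of Eng running from -0.20 to 2.30.

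Among the 34 markers above 0 in any library, tested or not, the groups did not overlap for 4. Eng and Myh11 were higher with PGE2, as were 2.4% of the 26770 genes of the table above 0 in any library. Cspg4 and Mbp were lower, as were 3.26% of those genes. Apart from Eng these markers were too low to enter the test, and Myh11, Cspg4 and Mbp stayed at or below 1.81 TPM.

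A further 65 genes that mark these cell types, or tendon, fat and red blood cells, were also mostly low, with a few exceptions. Of them 18 entered the test, 0 passed it in limma, and 11 were listed at 0 in all libraries. Of 10 further endothelial genes 2 were tested, the CD31 gene Pecam1 and the surface receptor Cd93, and the highest value of the list was 1.79 TPM, that of Cd93 in PGE2 2. The transcription factor Erg of endothelium did not exceed 1.18 TPM. Of 14 further leukocyte genes only Ptprc was tested. The macrophage mannose receptor Mrc1 was next in mean level and reached 2.96 TPM in PGE2 2, and Aif1 and Cd52 were listed at 0 throughout. Of 10 further fibro-adipogenic genes 4 were tested, and the collagen Col3a1 was at 15.3, 28.1 and 20.2 TPM across the Vehicle libraries, against 36.5, 30.4 and 24.9 TPM across the PGE2 libraries, well above the collagen Col1a2 (at most 6.12 TPM) and the proteoglycan Dcn (at most 1.37 TPM). The actin-severing protein Gsn read between 1.88 and 4.41 TPM.

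Of 10 further smooth muscle genes 6 were tested. The actin-filament proteins Cald1 and Tpm1, which many cell types use, read between 568 and 852 TPM and between 287 and 490.2 TPM, and the adhesion protein Vcl between 13.7 and 28.4 TPM, while the more restricted smooth muscle genes Myl9 and Smtn did not exceed 7.14 and 7.67 TPM. Among 8 further glial genes, the myelin gene Pmp22, which is also made outside glia, was at 20.4, 67.6 and 12.8 TPM across the Vehicle libraries, against 20.4, 172.9 and 86.5 TPM across the PGE2 libraries. The neuregulin receptor Erbb3 did not exceed 2.18 TPM. For the summed level of the further genes, the ratio of group means, PGE2 to Vehicle, was 1.46 in the fibro-adipogenic list. It was 0.74 for the markers of that class. The groups did not overlap for the further fibro-adipogenic genes, but Col3a1 held 66.0% of their total. Once Col3a1 was left out, the groups overlapped. PGE2 1 then fell to 3.29 TPM, below the lowest Vehicle sum of 8.52 TPM. PGE2 2 (25.6 TPM) and PGE2 3 (19.0 TPM) stayed above the highest Vehicle sum, 14.4 TPM. The ratio was 1.79 for the leukocyte and 0.93 for the smooth muscle list, where the groups overlapped. Among single genes the groups did not overlap for 3 of the 65, Mmrn2, Kcnj8 and Pparg, each lower in PGE2. Of the genes above 0 in any library, 3.26% were lower in PGE2 without overlap. Only Pparg of the 3 was tested, and of all tested genes 4.84% were lower without overlap.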

How the data were processed

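The authors deposited TPM values for the 6 libraries in a single table. Their unit is stated nowhere in it and was inferred from the values themselves. STAR, RSEM and mm10 are named as tools and genome build in the submitters' processing notes, without versions or settings. Per the labels' protocols, RNA was extracted with a micro-scale kit and cDNA was amplified before library construction. TPM is not a count, so no count test was run, read depth is unknown, and precision can be judged only from the 3 libraries per group. Positions and gene types came from GENCODE M21 of the same build, where all 42 markers were matched by identifier.

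The 2 groups were compared by limma 3.58.1 (R 4.3.3), two-sided, on log2(TPM + 1), which understates changes of low genes, with a mean trend in the variance prior. The fit was tested on simulated data. Tables and figures used Python 3.11.15. The markers and lists were chosen with earlier results of these data known. Values in all 6 libraries were given for markers tested and for those reaching 2 TPM in a library. Kdr, Cspg4, Myh11, Mbp and Pdgfra, and the actins, Hmgxb3 and Gm48529, fall outside that rule and were named after their values were seen. Other untested markers under 2 TPM, among them Sox10, Tie1, Lyz2, Adgre1, Dpt and Cd248, also fall outside it but were named with values. For the further lists, the rule takes the 3 genes with the highest mean and all genes of the sort gate; others named there were also chosen afterwards. Some genes of the glial list are not reported here. Alternatives covered the pseudocount, filter, scaling, variance prior and weights of libraries, a block for the replicate number, and leaving out each library.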

Additional observations from a re-analysis of the deposited data

How the results depend on the processing

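None of the markers passed limma's threshold under any of the 16 alternatives, and the adjusted p of the 8 tested lay between 0.651 and 1.00. Over all genes, where none passed, 1 passed with a robust variance prior and 0 to 2 with a library left out. The count of markers at 1 TPM or more in 3 libraries, 8 as deposited, was 14 when TPM was rescaled without mitochondrial genes, which added Csf1r, Cspg4, Emcn, Kdr, Mcam and Smoc2. It was 23 at 0.1 TPM, 14 at 0.5 TPM and 2 at 5 TPM. Markers with a higher fitted value numbered 3 of 8, 16 of 34 with no filter, 7 of 14 without mitochondrial genes, and 2 to 4 with a library left out. The log2 change of Tagln turned to -0.66 and -0.056 with pseudocounts of 0.1 and 0.5 TPM and to -0.16 with library weights, which also turned Acta2 to -0.084 and Cd68 to 0.024. The cause was not tested. With a library left out, the log2 change ran from -0.92 to 1.28 for Tagln, -0.94 to 0.024 for Cd68, -1.24 to 0.21 for Laptm5, -0.96 to 0.15 for Thy1 and -0.32 to 0.020 for Ngfr. Eng kept its sign, between 0.69 and 1.23 with a library left out and up to 1.48 elsewhere.

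For class sums, the log2 ratio of group means, PGE2 to Vehicle, was 0.63 for leukocyte markers and 1.32 without Laptm5, and -1.09 for glial markers and -4.60 without Ngfr, where the PGE2 sums are near 0. That of pericyte and smooth muscle markers, 0.36, ran from -0.17 (without PGE2 2) to 0.91 with a library left out. The other ranges were 0.71 to 1.43 for endothelial, -1.11 to -0.02 for fibro-adipogenic, 0.34 to 0.86 for leukocyte and -1.39 to -0.83 for glial markers. With the replicate number as a block, 0 genes and 0 markers passed and 3 of 8 markers were higher. The numbers share no stated source, and deviations of same-numbered libraries correlated at -0.06, -0.04 and 0.07, so they were not taken as pairs. Unknown depth leaves the meaning of a value under 1 TPM, in reads, unsettled.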

Other observations

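Beyond the cell types above, fat, tendon and blood genes were read from lists of 4, 4 and 5 genes. Pparg, the nuclear receptor that drives fat cell formation, was at 2.78, 7.80 and 1.52 TPM across the Vehicle libraries, against no value above 0 with PGE2. By limma its p was 0.00570 before and 1.00 after Benjamini-Hochberg adjustment over all genes, where 4.84% of tested genes were lower in PGE2 without overlap. The adipocyte genes Adipoq, Plin1 and Cidec did not exceed 0.26 TPM. The tendon transcription factor Scx was at 5.65, 9.69 and 7.76 TPM across the Vehicle libraries, against 15.3, 2.22 and 2.07 TPM across the PGE2 libraries, and the tendon factor Mkx read between 0.55 and 4.89 TPM, while the matrix protein Fmod and the tendon surface protein Tnmd did not exceed 1.16 and 0.34 TPM. All 4 globin genes were listed at 0 in every library, and Alas2, the first enzyme of haem synthesis in red cells, reached 2.81 TPM in PGE2 1.

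The collagen Col1a1 read 14.4 TPM in PGE2 3, against at most 0.44 TPM in the other 5 libraries. Its partner chain Col1a2 was listed at 0 in that library, as were Pdgfra and Thy1, and Col3a1 was there at its lowest PGE2 value, 24.9 TPM. Emcn was also highest in that library, at 15.3 TPM. Of the other endothelial markers, Eng read 2.54 TPM in it, Kdr 1.34 TPM, Tek 0.37 TPM, Flt1 0.18 TPM and Cdh5 0.14 TPM. Vwf, Egfl7, Esam, Robo4, Tie1 and Cldn5 were listed at 0 in PGE2 3.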
